A study of Mus musculus with 9 samples.

Results

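Galectins are proteins that bind β-galactoside sugars on the glycans of other proteins, and they act both inside cells and after secretion. Prototype galectins have a single carbohydrate-recognition domain and pair up, the chimera galectin-3 joins such a domain to a flexible tail through which it multimerizes, and tandem-repeat galectins link a pair of domains in a single chain. Secreted galectins crosslink branched N-glycans at the cell surface and in the matrix, and galectin-3 is a known promoter of myofibroblast activation and of organ fibrosis. The 6 genes described here were Lgals1 (galectin-1, prototype), Lgals3 (galectin-3, chimera), Lgals8, Lgals9 and Lgals12 (tandem-repeat), and Lgals3bp, which encodes a secreted glycoprotein that galectins bind and is not itself a galectin. They were chosen by gene name, and all 6 were found among the 43346 genes of the deposited table.

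RNA-Seq was performed on lung fibroblasts sorted from old male Col1a1-GFP reporter mice on a FVB background, in which the Col1a1 promoter drives GFP. The sort took cells that were GFP+, CD45-, CD31-, and EpCAM-, so it selected for activity of the reporter and against leukocytes, endothelium and epithelium. Mice of 18 months by the protocol, 72 weeks by the age label, had received a single intratracheal dose of saline (aged sham, 4 libraries) or of bleomycin (aged bleo, 5 libraries), and cells were taken at day 30. All mice carried the reporter, and young mice are not analysed here.

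The total count per library was 49921946 to 62370512 in aged sham and 53833507 to 68260600 in aged bleo. Fibroblast transcripts were abundant, with Col1a1 at 3649 to 4559 CPM in aged sham and 13560.2 to 25954 CPM in aged bleo. CPM is the count of a gene scaled to library size and by TMM, which corrects for differences in library composition. A gene was called higher or lower in aged bleo when the edgeR quasi-likelihood test gave an FDR (Benjamini-Hochberg adjusted p over 16877 tested genes) under 0.10 and the fold change was over 1.5. By this rule 12.3% of all tested genes were called higher and 11.5% were called lower. Of the 8 fibroblast identity genes, 4 rose, led by Col1a1 (log2 fold change 2.33). Dcn, which encodes the matrix proteoglycan decorin, fell by 1.54 on the log2 scale. The leukocyte gene Ptprc, which encodes the sorted-out CD45, was still read at 42.3 to 169 CPM in aged sham and at 30.6 to 183 CPM in aged bleo. Pecam1, the gene of CD31, was at 2.44 to 6.70 CPM and Epcam at 0.409 to 1.20 CPM over all 9 libraries. Of the other marker lists, 1 of 8 epithelial genes rose (Krt8, 1.12), which is near the share over all tested genes. Of 6 tested endothelial genes, 2 rose (Ptprb 0.70, Kdr 0.61) and 1 fell (Tek, -2.48). Tek was at 149 to 179 CPM in aged sham and 9.51 to 55.7 CPM in aged bleo. In aged sham it was far above the rest of the list, where the next gene, Ptprb, was at 5.17 to 10.8 CPM. The number of endothelial genes called higher was 1 with limma on log2 CPM, 0 with limma on FPKM, and 0 with a replicate block, and the Ptprb call was lost in 3 of the 9 fits that left out 1 library.

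The 6 genes lie on 5 chromosomes in GRCm38. Lgals1 is at chr15:78926725-78930465, Lgals3 at chr14:47367751-47386160, Lgals3bp at chr11:118392751-118402092, Lgals8 at chr13:12439415-12464944, Lgals9 at chr11:78962974-78984946, and Lgals12 at chr19:7596660-7607193. Only Lgals8 shares exonic bases with another annotated gene, 155 bases with Heatr1 on the opposite strand.

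RefSeq promoter sequences (GRCm38.p6) were matched for 4 of the 6 genes. The 250 bases before the annotated start are shown for Lgals3 and Lgals9, whose libraries did not overlap between groups and lay in opposite directions. The Lgals3 window is on the plus strand at chr14:47373610-47373859, ahead of a start inside the gene's annotated span, and the Lgals9 window is on the minus strand at chr11:78984925-78985174. Capitals mark a match to the interferon response element core, read 5′ to 3′ with the gene.
Lgals3: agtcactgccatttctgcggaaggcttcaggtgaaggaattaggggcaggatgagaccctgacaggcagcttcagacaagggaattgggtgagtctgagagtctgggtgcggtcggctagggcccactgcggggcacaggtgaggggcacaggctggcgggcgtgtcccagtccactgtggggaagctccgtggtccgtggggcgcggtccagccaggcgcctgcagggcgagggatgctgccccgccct
Lgals9: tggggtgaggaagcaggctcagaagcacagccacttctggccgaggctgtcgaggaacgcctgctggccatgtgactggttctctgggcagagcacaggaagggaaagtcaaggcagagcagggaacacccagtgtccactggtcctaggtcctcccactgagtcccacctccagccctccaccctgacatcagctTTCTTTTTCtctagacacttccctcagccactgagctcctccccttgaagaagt
The Lgals3 window held 13 CpG dinucleotides and 66.0% G or C, and the Lgals9 window held 3 CpG and 58.4%, against a median of 6 CpG over 32851 promoters of the same length. Of the 3 motifs reported, each searched on both strands, only the interferon response element core (GAAANNGAA) was found, once, in Lgals9 at 54 to 46 bases before the start, in reverse orientation. It was present in 7.13% of all promoters. The others were the AP-1 site TGANTCA (6.75% of promoters) and the NFAT core GGAAAA (20.4%). None of the 3 motifs was found in the windows of Lgals3, Lgals3bp, or Lgals8.

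The filter on low counts required an average of at least 25 counts per library. Lgals12 passed it, at an average of 43 counts, only through aged bleo, since all of its aged sham libraries held fewer than 25 counts, and the other 5 genes passed it in both groups. The filter thus favoured a higher level of Lgals12 in aged bleo, so counts of members are also given without it. Lgals1, Lgals3 and Lgals12 rose (3 of 6 members, or 2 of 5 without Lgals12), where 12.3% of all tested genes were called higher. Called lower were 0 of 6 members, against 11.5% of all tested genes. DESeq2 and limma also called 3 higher and 0 lower. At an unadjusted p under 0.05 by edgeR, 4 members were higher (Lgals1, Lgals3, Lgals3bp and Lgals12) and 2 were lower (Lgals8 and Lgals9). Over all tested genes, 7769 of 16877 had such a p in either direction. These shares over all tested genes are also the background for the counts of all gene lists. In Lgals3 and Lgals12 (2 of 6 members, or 1 of 5 without Lgals12) every aged bleo library was above every aged sham library, which held for 16.1% of tested genes. In 2 members (Lgals8 and Lgals9) every aged bleo library was below every aged sham library, which also held for 16.1% of tested genes. These comparisons of libraries are on the CPM scale, and that of Lgals8 depended on it, as given below. The median log2 fold change over all tested genes was 0.01.

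**Figure D1:**
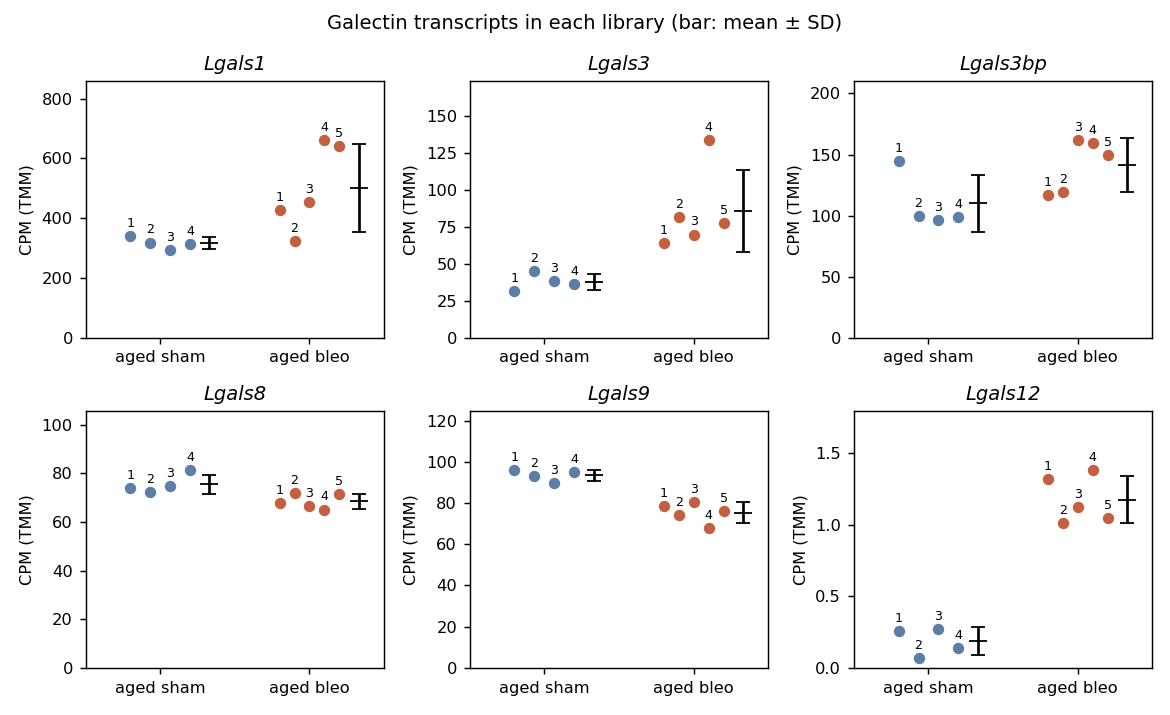
Level of each of the 6 genes in CPM (TMM-scaled, linear axes from 0) in the 4 aged sham and 5 aged bleo libraries, numbered by library, with the group mean ± SD as a bar beside the points. Lgals3 and Lgals12 lie higher in every aged bleo library, Lgals8 and Lgals9 lie lower, and the groups overlap for Lgals1 and Lgals3bp.

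Lgals1, which encodes the secreted prototype galectin-1, was the most abundant member by FPKM in every library. Its level in aged sham was 341, 319, 293, and 314 CPM in libraries 1 to 4. In aged bleo it was 426, 323, 454, 661, and 642 CPM in libraries 1 to 5. Library 2 of aged bleo lay within the aged sham range and the other 4 aged bleo libraries were above it. The means were 316 ± 19.7 CPM (SD, n = 4) and 501.0 ± 146 CPM (SD, n = 5), and Lgals1 rose by a log2 fold change of 0.66 ± 0.20 (SE, FDR 0.0320 by edgeR), or 1.58-fold. The call rested on the libraries with the highest levels. The log2 fold change was 0.53 without aged bleo 4 and 0.56 without aged bleo 5, both under the fold threshold.

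In FPKM, which divides by gene length and allows genes to be set side by side, Lgals1 was at 155 to 178 in aged sham and 169 to 371 in aged bleo. This placed it between rank 81 and 101 of all genes in aged sham and between rank 24 and 71 in aged bleo. The genes with the most similar profile over the 9 libraries, by root mean square difference of centred log2 CPM, were Pgam1, a glycolytic enzyme, and Cfl1, the actin-severing protein cofilin. Both differed from Lgals1 by 0.07 on the log2 scale. Cfl1 was at 257 to 262 CPM in aged sham, against 291 to 567 CPM in aged bleo.

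Lgals3 encodes galectin-3, the chimera galectin, long known as the macrophage surface antigen Mac-2. Its level in aged sham was 31.4, 44.9, 38.7, and 36.5 CPM in libraries 1 to 4. In aged bleo it was 64.5, 82.1, 69.9, 134, and 77.5 CPM in libraries 1 to 5. The groups did not overlap, and library 4 of aged bleo stood above the other 4. The means were 37.9 ± 5.62 CPM (SD, n = 4) and 85.5 ± 27.8 CPM (SD, n = 5). Lgals3 rose by a log2 fold change of 1.18 ± 0.22 (SE, FDR 0.00405 by edgeR), or 2.26-fold. Without aged bleo 4 the log2 fold change was 0.95 (FDR 9.05e-04 by edgeR).

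**Figure D2:**
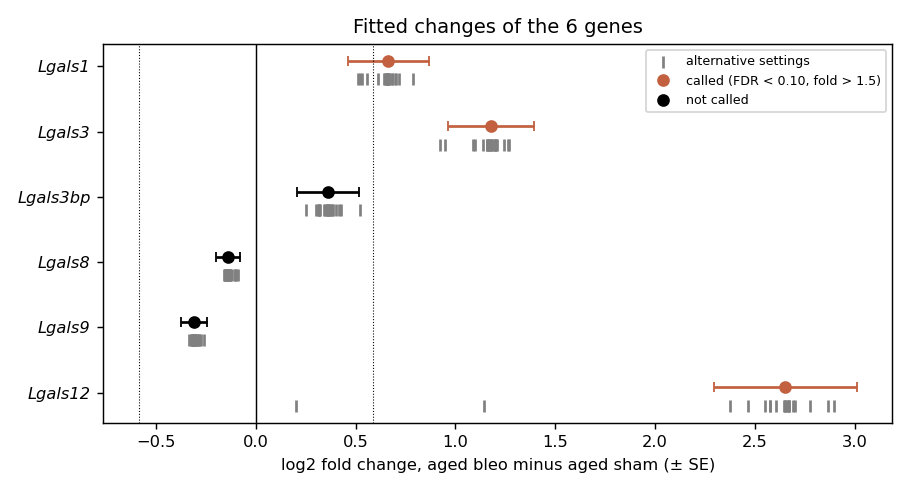
Fitted log2 fold change of each gene, aged bleo minus aged sham, with its SE (points and bars). Grey ticks give the 21 alternative settings (20 for Lgals12), and dotted lines mark the 1.5-fold threshold. Lgals3 stays beyond the threshold in each of them, Lgals1 straddles it, and Lgals12 drops to 0.20 on the log2(FPKM + 1) scale.

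The gene nearest to Lgals3 in profile among all tested genes was Cd68, a lysosomal glycoprotein used as a macrophage marker. The profiles differed by a root mean square of 0.13, where Lgals3 itself varied by 0.64 on the log2 scale around its mean over the 9 libraries. Cd68 was at 11.4 to 15.4 CPM in aged sham, against 21.97 to 51.7 CPM in aged bleo, with its highest value in library 4 like Lgals3. The CPM ratio of Lgals3 to Cd68 was 2.37 to 3.34 in aged sham and 2.59 to 2.93 in aged bleo, and these ranges overlapped. Cd68 was picked for its similarity to Lgals3 over these same libraries, so a steady ratio follows from that choice and is not separate evidence. The next gene was Ccdc125, at a difference of 0.17.

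Macrophage transcripts were present in both groups, and many, though not all, were higher in aged bleo. Of 15 macrophage markers, 8 rose and 0 fell, with a median log2 fold change of 1.38. Lyz2, which encodes lysozyme, rose by 2.42, and the sialoadhesin gene Siglec1 by 2.32, whereas Gpnmb (-0.18), Cd14 (-0.19), Csf1r (0.46, FDR 0.475 by edgeR) and C1qa (1.46, FDR 0.121 by edgeR) did not pass. No macrophage marker was at 0 counts in every library. The summed level of the 15 markers was 402 to 813 CPM in aged sham and 772 to 2320 CPM in aged bleo, with the highest sums in library 4 of each group. Within aged sham, Lgals3 was highest in library 2 (macrophage sum 495 CPM), as was C1qa (17.7 CPM). Cd68 (15.4 CPM), Lyz2 (162 CPM) and the macrophage sum (813 CPM) were highest in library 4. The 8 pan-leukocyte markers summed to 116 to 438 CPM in aged sham and 121 to 671 CPM in aged bleo, and 1 of 8 rose (Laptm5, 1.10). The Laptm5 call (FDR 0.0931 by edgeR) was lost in 6 of the 9 fits that left out 1 library. Without aged bleo 4, 0 of these 8 were called higher and 2 were called lower, in a fit that kept aged sham 4 (leukocyte sum 438 CPM).

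Library 4 of each group held the highest leukocyte sums. Without library 4 of both groups, Lgals3 was higher by 0.92 on the log2 scale (FDR 0.00449 by edgeR), and 7 of the 15 macrophage markers were called higher. Of 7 neutrophil genes, 0 were called in either direction by edgeR, DESeq2, or limma and 0 had an unadjusted p under 0.05. Without aged bleo 4, all 7 of them were called lower, in a fit that kept aged sham 4, the library with the highest neutrophil sum (1094 CPM). The neutrophil sums were 185 to 1094 CPM in aged sham and 89.7 to 968 CPM in aged bleo. In sorted bulk RNA, a change in the number of cells of a type and a change in RNA per cell cannot be told apart, and the part of macrophage RNA in the Lgals3 result was not tested.

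**Figure D3:**
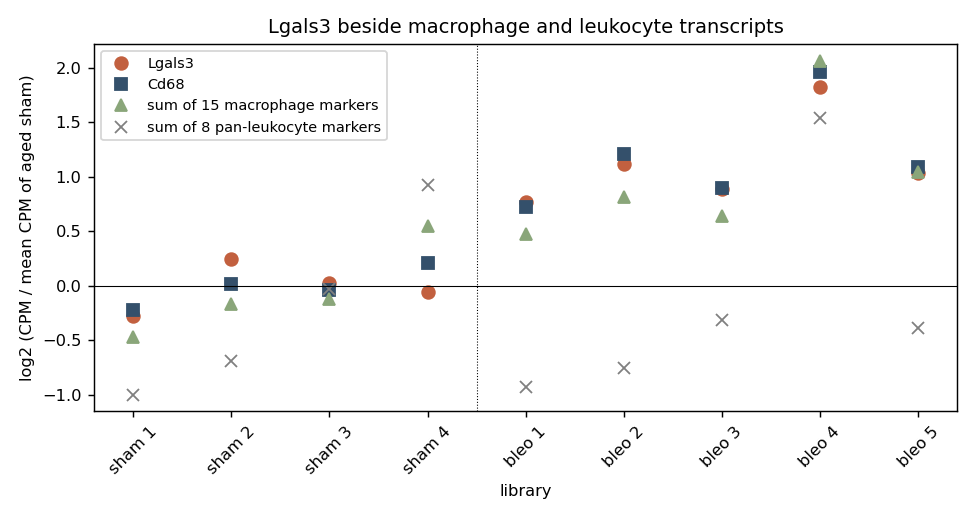
Level of Lgals3, Cd68, and the summed macrophage and pan-leukocyte markers in each library, as log2 of CPM over the aged sham mean. Lgals3 and Cd68, the gene picked for the profile most similar to that of Lgals3, lie close to each other in the aged bleo libraries. The pan-leukocyte sum is near or below its aged sham mean in aged bleo 1, 2, 3, and 5 and is high in library 4 of both groups.

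Lgals3bp encodes the galectin-3 binding protein, a secreted, heavily glycosylated scavenger receptor family protein. Its level in aged sham was 145, 99.98, 96.2, and 99.0 CPM in libraries 1 to 4. In aged bleo it was 116, 119.6, 162, 159.5, and 149.7 CPM in libraries 1 to 5. Library 1 of aged sham was higher than aged bleo 1 and 2, and the other 3 aged sham libraries were below all of aged bleo. The log2 fold change was 0.36 ± 0.16 (SE, FDR 0.1001 by edgeR), which passed neither threshold. Without aged sham 1 it was 0.52 (FDR 0.0208 by edgeR), still under 1.5-fold. The nearest profiles were those of Gm13199 and Zfp516, each at a difference of 0.11 where Lgals3bp varied by 0.29.

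Among the tandem-repeat galectins, Lgals9 encodes galectin-9, an interferon-inducible ligand of the T cell receptor TIM-3. Its level in aged sham was 95.8, 93.0, 89.8, and 95.1 CPM in libraries 1 to 4. In aged bleo it was 78.7, 74.0, 80.5, 67.8, and 76.0 CPM in libraries 1 to 5. Every aged bleo library was below every aged sham library and the spread within groups was small. The means were 93.4 ± 2.69 CPM (SD, n = 4) and 75.4 ± 4.91 CPM (SD, n = 5). The log2 fold change was -0.31 ± 0.06 (SE, FDR 0.00681 by edgeR), so the difference passed the FDR but, at 1.24-fold, not the fold threshold. Its nearest profiles were those of Mcu, the mitochondrial calcium uniporter, and Wdr20.

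Lgals9 and Lgals3bp are known interferon-inducible genes, and of 18 interferon-stimulated genes 2 rose and 1 fell, with a median log2 fold change of -0.02. At an unadjusted p under 0.05, 2 were higher and 4 were lower, and 3 lower ones passed the FDR but not the fold threshold, as Lgals9 did, among them Irf9 (-0.45) and Ifi35 (-0.37). Mx1, an antiviral GTPase, rose by 1.46 and Ifi44 by 1.80, while Ifit2 fell by 0.67 on the log2 scale. The Ifi44 call (FDR 0.0786 by edgeR) was lost in 6 of the 9 fits that left out 1 library, and with a replicate block.

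Lgals8 encodes galectin-8, which binds glycans exposed on damaged endosomes and lysosomes. Its level in aged sham was 74.1, 72.3, 74.8, and 81.2 CPM in libraries 1 to 4. In aged bleo it was 67.8, 71.9, 66.5, 65.2, and 71.7 CPM in libraries 1 to 5. In CPM all aged bleo libraries lay below all aged sham libraries, aged bleo 2 and 5 by less than 1 CPM. In FPKM the groups overlapped, with aged bleo 5 (8.42) above aged sham 1 (8.40) and aged sham 2 (8.35). The log2 fold change was -0.14 ± 0.06 (SE, FDR 0.1002 by edgeR), and Lgals8 was not called. Among all tested genes the closest profiles were those of 2310035C23Rik and Mtmr6, at 0.03 and 0.04. Lgals8 had the smallest variation of the members (0.09 on the log2 scale).

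Of 12 genes that respond to damaged lysosomes, 11 were tested, and 0 rose while 2 fell. At an unadjusted p under 0.05, 1 was higher and 5 were lower, and DESeq2 and limma also called 0 higher and 2 lower. Optn, an autophagy receptor, fell by 0.93 on the log2 scale, and Trim16, a ubiquitin ligase that binds galectin-3 at damaged membranes, fell by 0.91. Calcoco2, whose human counterpart is a receptor that binds galectin-8, was at 0 counts in all 9 libraries, which allows up to 3 counts in each. Whether reads could be assigned to Calcoco2 was not tested.

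Lgals12 encodes galectin-12, known from adipocytes, where it sits on lipid droplets, and from myeloid cells. It was read at very low levels, 16, 4, 14, and 7 counts in aged sham 1 to 4 and 71, 57, 60, 101, and 57 counts in aged bleo 1 to 5. These correspond to 0.258, 0.0684, 0.273, and 0.141 CPM in aged sham. The aged bleo values were 1.32, 1.01, 1.12, 1.38, and 1.04 CPM. The groups did not overlap, and even the lowest aged bleo library was well above the highest aged sham library. Lgals12 rose by a log2 fold change of 2.65 ± 0.36 (SE, FDR 9.17e-04 by edgeR), or 6.29-fold, from 0.185 ± 0.0976 CPM (SD, n = 4) to 1.18 ± 0.165 CPM (SD, n = 5). Because Lgals12 passed the filter on low counts only through aged bleo, the filter favoured such a difference, and the FDR does not allow for that. In the fit with no such filter the log2 fold change was 2.67 (FDR 7.89e-04 by edgeR). A count of 0 would allow up to 0.0409 to 0.0605 CPM in these libraries, close to the level of aged sham 2. On the log2(FPKM + 1) scale the difference was 0.20 and was not called.

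Adipocyte transcripts were also scarce. Adipoq, the gene of adiponectin, was at 1 to 23 counts in aged sham and 1 to 16 counts in aged bleo, and Adipoq, Plin1, and Cidec did not pass the filter. Of the 7 tested genes of the adipocyte and lipid droplet list, Plin2, a lipid droplet coat protein of many cell types, rose by 0.89. Plin4, another coat protein, fell by 1.16 on the log2 scale, and the list median was 0.06. The profiles nearest to Lgals12 were Alpk2 (difference 0.29) and Col8a1 (0.32), against a variation of Lgals12 of 1.36. Alpk2 was itself read at very low levels in aged sham, 0.0856 to 0.292 CPM. Col8a1, a short-chain collagen, was at 21.8 to 39.7 CPM in aged sham, against 143 to 236 CPM in aged bleo.

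By FPKM, the order of mean levels in aged sham was Lgals1 (166), Lgals9 (18.3), Lgals3bp (16.2), Lgals8 (8.59), Lgals3 (8.55), and Lgals12 (0.0280). In aged bleo the order was Lgals1 (271), Lgals3bp (21.4), Lgals3 (19.9), Lgals9 (15.2), Lgals8 (8.00), and Lgals12 (0.183). Neighbours whose library ranges overlapped were Lgals9 with Lgals3bp and Lgals8 with Lgals3 in aged sham, and Lgals3bp with Lgals3 and Lgals3 with Lgals9 in aged bleo. Lgals3 thus moved from the fifth to the third place in mean level. It was above Lgals8 in 2 of 4 aged sham and 5 of 5 aged bleo libraries, and above Lgals9 in 0 of 4 and 3 of 5.

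The summed FPKM of the 5 galectins, without Lgals3bp, was 190 to 212 in aged sham and 211 to 425 in aged bleo, and the ranges overlapped at their ends. Lgals1 made up 81.5% to 83.9% of that sum in aged sham and 80.3% to 89.2% in aged bleo. The share of Lgals3 was 3.32% to 4.98% in aged sham and 4.64% to 8.80% in aged bleo, whereas that of Lgals9 was 8.83% to 9.36% and 3.35% to 6.90%. The FPKM ratio of Lgals1 to Lgals3 was 16.5 to 25.2 in aged sham and 9.13 to 19.2 in aged bleo, with overlapping ranges.

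**Figure D4:**
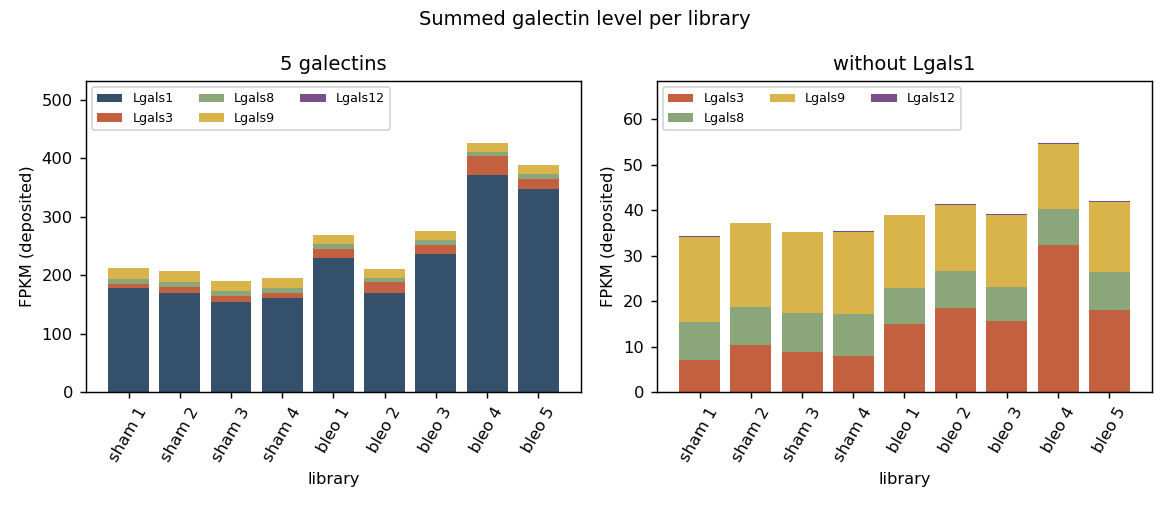
Deposited FPKM of the 5 galectins stacked for each library, with Lgals1 on the left and without it on the right (axes from 0). Lgals1 fills most of each bar, and on the right the Lgals3 segment is larger in all 5 aged bleo bars than in the 4 aged sham bars.

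Other galectin-fold genes were few. Of 6 listed, 5 were in the table and 3 were tested, and 0 were called by edgeR, DESeq2, or limma, with 1 higher at an unadjusted p under 0.05. That gene was Lgalsl, a galectin-related gene that lacks sugar binding, with a log2 fold change of 0.49 (FDR 0.00422 by edgeR, under the fold threshold). Lgals4, an epithelial galectin, was at 4.60 to 7.07 CPM in aged sham and 3.49 to 5.60 CPM in aged bleo. Lgals2 was at 0.382 to 1.39 CPM over all 9 libraries.

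Galectins read glycans that enzymes of the Golgi build. Of 18 enzymes of N-glycan branching and N-acetyllactosamine synthesis, 2 rose and 2 fell, with a median log2 fold change of 0.18. Both counts were near the shares over all tested genes, 12.3% called higher and 11.5% called lower. Mgat3, which adds the bisecting residue that limits further branching, rose by 1.74 ± 0.14 (SE, FDR 6.51e-05 by edgeR), from 6.21 ± 1.01 CPM (SD, n = 4) to 20.7 ± 2.82 CPM (SD, n = 5). B4galt5, a galactosyltransferase known mainly for glycolipids, rose by 0.94. Man1a, a mannosidase that trims N-glycans before branching, fell by 1.56 on the log2 scale, and Mgat4a, a branching enzyme, fell by 0.60. Mgat5, which makes the branch that galectin-3 binds best, was at 28.1 to 33.1 CPM in aged sham and 42.5 to 47.1 CPM in aged bleo. Its log2 fold change of 0.56 (FDR 4.59e-04 by edgeR) was under the fold threshold.

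Sialic acid on the terminal galactose alters galectin binding. Of 7 tested sialyltransferases, 1 rose and 2 fell, with a median log2 fold change of 0.34. St3gal5, which makes the ganglioside GM3, rose by 0.76, while St3gal6 fell by 1.05 and St3gal2 fell by 0.94 on the log2 scale. St6gal1 was at 41.9 to 53.0 CPM in aged sham and 61.2 to 71.6 CPM in aged bleo. Its log2 fold change of 0.42 (FDR 0.00723 by edgeR) was under the fold threshold. At an unadjusted p under 0.05 by edgeR, 4 genes of the list were higher and 3 were lower. The summed level of the list was 470.2 to 489 CPM in aged sham and 349 to 434 CPM in aged bleo.

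Of 20 glycoproteins known to bind galectins, 6 rose and 0 fell, with a median log2 fold change of 0.31. At an unadjusted p under 0.05, 10 were higher and 1 was lower, DESeq2 called 6 higher and limma 5, and both called 0 lower. The 6 were Havcr2 (2.36), Alcam (1.75), Itga1 (1.49), Cd44 (1.11), Itgb1 (0.85), and Itga5 (0.61). Havcr2, which encodes TIM-3 and is expressed by myeloid cells, was at 0.485 to 1.41 CPM in aged sham and 2.29 to 9.20 CPM in aged bleo, and without aged bleo 4 it was higher by 1.86 on the log2 scale (FDR 0.00874 by edgeR). The integrin subunit gene Itgb1 rose from 773 ± 30.8 CPM (SD, n = 4) to 1393 ± 257 CPM (SD, n = 5). Cd44, the hyaluronan receptor, was at 125 to 214 CPM in aged sham and 289 to 452 CPM in aged bleo. Tgfbr2, the transforming growth factor β receptor subunit, had a log2 fold change of 0.36 (FDR 0.0446 by edgeR), under the fold threshold.

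**Figure D5:**
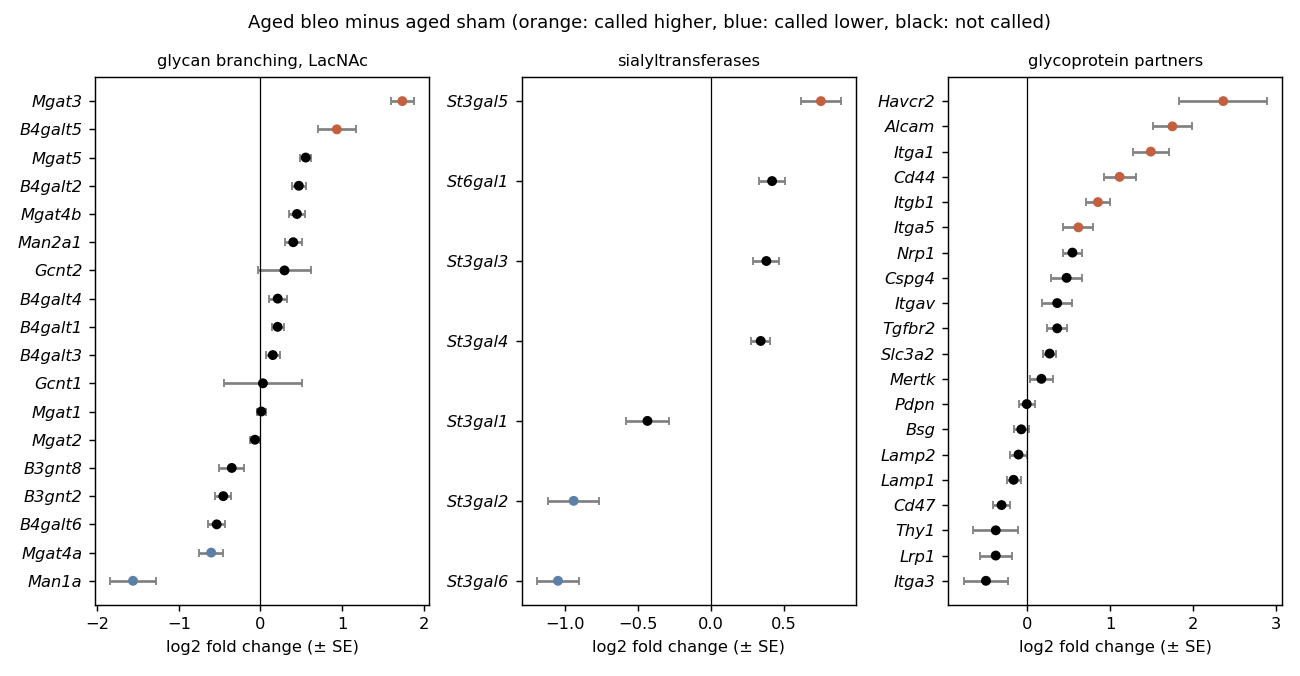
Log2 fold change (± SE) of the tested glycan branching enzymes, sialyltransferases, and glycoprotein partners, aged bleo minus aged sham. Both enzyme panels hold genes called in both directions, from Mgat3 at 1.74 to Man1a at -1.56, while the 6 called partners are all higher.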

How the data were processed

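Poly-A RNA-Seq libraries (TruSeq RNA Sample Prep Kit v2, which does not mark strand) of sorted lung fibroblasts were analysed, 4 aged sham and 5 aged bleo, grouped by the condition in their labels. The submitters' processing notes name bcl2fastq, STAR 2.5.2b, and featureCounts (Subread), with mm10 and GRCm38; annotation release and strand setting are not given in the sources used here. The deposited table holds whole read counts of 43346 genes without normalization, and FPKM values that the authors scaled to gene length and library total. The positions of 33497 of 42462 shared gene identifiers (78.887%), all 6 members included, equal those of GENCODE M21 on GRCm38. The table has 0 columns of unknown samples.

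The 16877 genes that averaged 25 counts or more over the 9 libraries were tested with edgeR 4.0.16 (TMM, glmQLFit and glmQLFTest, no covariate) in R 4.3.3. The SE was derived from the fold change and its test, and CPM is TMM-scaled. FPKM, as deposited by the authors, was used to compare levels between genes. The test was checked on simulated data. Alternatives used DESeq2 1.42.0, limma 3.58.1 on log2 CPM and on log2(FPKM + 0.1) or log2(FPKM + 1), RLE or library-size scaling, other filters, a robust fit, stricter thresholds, a replicate block, and fewer libraries. Motifs were searched in RefSeq promoter sequences. A gene of the lists and 1 of the motifs are not reported here. No pair of libraries was a duplicate, with a chi-square per degree of freedom of 30.9 to 70.9 in aged sham and 34.1 to 468 in aged bleo. P-values measure the spread between these libraries, which the labels do not tie to named animals.

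The members and gene lists (other galectins, glycan enzymes, partners, lysosome damage, interferon, adipocyte, macrophage, pan-leukocyte, neutrophil, epithelial, endothelial, and fibroblast genes) were chosen with earlier results of these data known. Named are all members, the called gene with the largest change in each direction in each list, list genes whose role bears on a member, and the 2 genes with the most similar profile to each member. Counting limits cover counting error only.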

Additional observations from a re-analysis of the deposited data

Results flagged for a closer look

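Of 12 sets of libraries examined (6 genes in each group), 2 held a library that stood far from the rest by its gap relative to the range of the group (above Dixon's critical value), and chance flags about 1 in 20 such sets. Lgals3 in aged bleo 4 was at 134 CPM, where the next library was at 82.1 CPM and the lowest at 64.5 CPM, a gap of 0.746 of the range. Without that library, the Lgals3 log2 fold change was 0.95 (FDR 9.05e-04 by edgeR). Lgals3bp in aged sham 1 was at 145 CPM, where the next library was at 99.98 CPM and the lowest at 96.2 CPM, a gap of 0.922 of the range. Without that library, the Lgals3bp log2 fold change was 0.52 (FDR 0.0208 by edgeR), and the gene remained under the fold threshold.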

How the results depend on the processing

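Over 21 alternative settings, 119 of 125 values of the 6 genes kept their direction and their call (FDR and fold together) and 0 reversed, as did 322 of 357 values of the other named genes, again with 0 reversed. Lgals3 passed in all 21, with a log2 fold change of 0.92 to 1.27. At an FDR of 0.10 alone, Lgals3bp (0.1001) passed in 8 alternatives and Lgals8 (0.1002) in 4, each under 1.5-fold. Lgals12 had no value when 10 counts were required in every library and was not called on log2(FPKM + 1) (0.20). Lgals1 lost its call with stricter thresholds (FDR under 0.05, fold over 2), without aged bleo 4 (0.53), without aged bleo 5 (0.56), without library 4 of both groups (0.52, FDR 0.113 by edgeR), and with a replicate block. The main counts were 2082 higher and 1940 lower over all genes, and 28 higher and 10 lower in the fixed lists. On log2(FPKM + 1) the counts over all genes were 960 and 825, with 17 list genes higher. With stricter thresholds they were 1224 and 934, with 17 list genes higher and 5 lower. List genes called lower numbered 9 to 19 when 1 library was left out, with 19 without aged bleo 4, and 16 without library 4 of both groups. The cause was not tested. The labels do not say whether replicate numbers pair the libraries. Deviations of same-numbered libraries correlated at 0.09, 0.06, -0.13, and 0.33 for numbers 1 to 4. Closest to its own number was 1 of 4 aged sham and 1 of 4 numbered aged bleo libraries. So few libraries cannot exclude a pairing. With the number as a block, 1822 genes were higher and 1714 lower, and Lgals1 had a log2 fold change of 0.51 (FDR 0.105 by edgeR). Aged bleo 5 has no aged sham library of its number, so it added nothing to the difference in that fit. The block fit is thus not separate from the fit without aged bleo 5. The depth limits Lgals12 most, with 4 to 16 counts in aged sham.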
